A study of Mus musculus with 16 samples.

Results

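Semaphorins are guidance ligands, and plexins and neuropilins are the receptors that read them. The family was taken as every gene symbol in the deposited matrix that begins with Sema or Plxn, together with Nrp1 and Nrp2, and this gave 29 genes of the 14498 in the matrix: 19 semaphorins, 8 plexins and 2 neuropilins. The rule uses symbols alone. Cells dissociated from the forebrain of CD1 embryos, wild type, at embryonic day 15.5 were profiled singly with the SureCell droplet workflow, which counts unique molecular identifiers (UMIs), the tags that mark single captured RNA molecules. The 16 samples are labelled alike, with no other allele and no treatment named, and all were deposited as 1 matrix of 5777 cells that does not tie a cell to its sample. There is therefore 1 group without replicates, and every interval below is a 95% interval that covers counting error only. Neither the number of embryos nor whether they were pooled is given in the labels.

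Semaphorins share the sema domain. Class 3 members are secreted and mostly bind a neuropilin, which holds the ligand, while the plexin partner carries the signal across the membrane through its GTPase-activating domain. Classes 4, 5 and 6 span the membrane, class 7 is anchored in it by a lipid, and many of these bind plexins without a neuropilin. In the developing forebrain the family is known for steering axons, orienting the leading process of migrating cortical neurons, sorting interneurons from the striatum and positioning cells at the pial surface.

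All 29 members were detected, with 48277 UMIs in all, or 0.223% of the 21609944 UMIs in the matrix. Cells held a median of 3258 UMIs, with a range from 1111 to 17398. Totals per gene ran from 9300 UMIs for Plxna2, found in 60.3% of cells, down to 19 for Sema3b. Below 200 UMIs stood Sema3b, Sema3d (24 UMIs) and Sema3e (86 UMIs), all secreted ligands, so 26 members had enough UMIs for a description by class. Levels are given as UMIs of the gene per 1000000 UMIs of a class of cells (CPM). Clusters were built without the family and were named from marker genes, and each name is read as "-like", since no cell annotation was used here. These were cells like radial glia (829 cells), intermediate progenitors (252), migrating excitatory neurons (602), older excitatory neurons (1399), ganglionic eminence progenitors (485), Lhx6 interneurons (481), Sp8 interneurons (193), striatal neurons (264), basal forebrain neurons (150), Cajal-Retzius cells (71), meningeal fibroblasts (29), choroid plexus (24) and microglia (18). The excitatory class was made of a deep layer cluster (469), an upper layer cluster (238) and a cluster led by Nr4a3 and Crym (692). Of 21 clusters, 4 stayed unnamed, and 4 cells rich in globin RNA were set apart. The meningeal-like cluster also held endothelial markers at 2197 CPM and mural markers at 1738 CPM, beside 7424 CPM for its own list, so its values are those of a mixture.

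The cells were split into 2 runs along the matrix. Run 1, of 3651 cells, ends at the last cell with a Y-linked UMI. Run 2, of 2122 cells, starts at the first cell with a UMI of 11 genes listed out of alphabetical order. The 4 cells between them are in neither run. These marks define the runs, so a difference in them is not a result. The labels name neither run. Several classes were unevenly spread over them. The upper layer-like cluster had 17 cells in run 1 and 221 in run 2, the eminence progenitor-like class 464 and 20, the striatal-like class 246 and 18, and the basal forebrain-like class 150 and 0. Whether the runs are samples, embryos or batches cannot be told apart, so within-run ratios are also given for some leading members and wherever the intervals of the 2 runs did not meet. In the comparisons with eminence progenitor-like cells and between the interneuron-like classes, the leading ratios are given over all cells only. Within-run ratios needed at least 10 cells of both classes in the run.

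Promoter windows are shown for 4 members, which are among those with the widest contrasts of the excitatory lineage: Sema3c, Nrp1 and Sema6d were higher in migrating than in intermediate progenitor-like cells, and Sema5a was lower. Each is the RefSeq window of GRCm38.p6 from 250 bases before to 50 after an annotated start, on the plus strand. For Sema6d the first of its 2 windows is shown. Capitals mark CAGATG, an E-box form that neurogenin and NeuroD factors are known to bind, or TGGGAA, a core of RBPJ sites, on either strand; the E-box CAGCTG was also searched.
Sema3c, chr5:17574566-17574865: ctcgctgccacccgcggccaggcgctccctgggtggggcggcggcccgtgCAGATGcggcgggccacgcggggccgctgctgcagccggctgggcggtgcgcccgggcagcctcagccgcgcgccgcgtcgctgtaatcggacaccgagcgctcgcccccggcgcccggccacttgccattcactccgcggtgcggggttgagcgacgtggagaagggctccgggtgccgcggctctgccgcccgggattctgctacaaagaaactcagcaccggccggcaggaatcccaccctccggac
Nrp1, chr8:128358823-128359122: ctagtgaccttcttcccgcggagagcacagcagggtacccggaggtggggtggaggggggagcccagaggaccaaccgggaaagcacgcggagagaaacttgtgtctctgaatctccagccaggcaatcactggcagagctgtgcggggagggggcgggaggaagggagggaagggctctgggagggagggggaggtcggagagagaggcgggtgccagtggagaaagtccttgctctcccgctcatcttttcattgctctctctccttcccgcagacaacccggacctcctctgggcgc
Sema6d, chr2:124089719-124090018: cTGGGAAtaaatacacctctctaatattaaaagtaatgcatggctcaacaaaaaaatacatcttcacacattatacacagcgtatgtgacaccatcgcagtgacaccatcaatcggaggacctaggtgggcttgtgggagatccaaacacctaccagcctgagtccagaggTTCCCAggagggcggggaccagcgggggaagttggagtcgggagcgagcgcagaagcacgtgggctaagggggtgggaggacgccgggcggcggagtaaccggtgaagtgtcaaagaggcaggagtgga
Sema5a, chr15:32244563-32244862: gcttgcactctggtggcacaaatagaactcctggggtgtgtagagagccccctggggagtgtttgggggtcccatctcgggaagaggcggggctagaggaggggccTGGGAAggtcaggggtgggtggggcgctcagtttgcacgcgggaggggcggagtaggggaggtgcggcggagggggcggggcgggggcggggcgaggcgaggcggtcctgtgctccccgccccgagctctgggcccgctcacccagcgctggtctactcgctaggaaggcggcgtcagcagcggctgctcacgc
In the windows shown, Sema3c held 1 CAGATG, Sema6d 2 TGGGAA and Sema5a 1 TGGGAA, and Nrp1 held none of the 3 motifs. The other Sema6d window, chr2:124653331-124653630, also held none of them. Windows of 24 members, with 35 starts, were searched. Of these, 2 held CAGATG, 4 CAGCTG and 7 TGGGAA, against 17.2%, 16.3% and 25.6% of 32851 mouse windows of the same 300 bases. The motifs do not overlap each other. These are letter matches in a window, not binding sites. In the GENCODE annotation of the same build the genes span chr5:17574281-17730268 for Sema3c, chr8:128358604-128503363 for Nrp1, chr2:124089969-124667770 for Sema6d and chr15:32244810-32696341 for Sema5a, all on the plus strand.

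Among the secreted ligands, Sema3a is a known repellent of cortical axons. Its level was 80.1 CPM (64.8 to 97.9) in Lhx6 interneuron-like, 65.6 in radial glia-like, 59.2 in striatal-like, 58.7 in intermediate progenitor-like and 57.4 CPM in upper layer-like cells. It was 21.4 CPM in Sp8 interneuron-like, 12.2 CPM in eminence progenitor-like and 6.39 CPM in Cajal-Retzius-like cells, and no UMI was found in the 24 choroid plexus-like cells, which allows up to 23.3 CPM. Within the Lhx6 class it differed between the 2 clusters: 28.3 CPM in the one led by Maf and Lhx6 and 133 CPM in the one led by Sst and Nxph2. Within the runs it was 26.8 and 141 CPM in run 1 and 35 and 125 CPM in run 2, so the level of Sema3a varied inside a single named class in either run.

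Sema3c, a ligand that can act on either neuropilin, had its highest level among the named classes in the excitatory lineage. It reached 235 CPM (214 to 257) in migrating-like cells and 122 CPM in the Crym and Nr4a3 cluster, and these intervals were apart. In deep layer-like cells it was 14.4 CPM and in upper layer-like cells 9.41 CPM. Basal forebrain-like cells, at 115 CPM, were the ventral class with a comparable level. A cluster of 28 cells that stayed unnamed, led by Cyp26b1 and Calb2, had 466 CPM of Sema3c and 937 CPM of Nrp1, and 9 of its cells were in run 1.

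Sema3f, the usual partner of Nrp2, was 49.3 CPM in striatal-like and 48.5 CPM in deep layer-like cells, and 6.68 CPM in eminence progenitor-like cells. Choroid plexus-like cells showed 85.5 CPM (42.7 to 153), from 11 UMIs. Sema3e, the ligand that binds Plxnd1 without a neuropilin, had 15 UMIs in intermediate progenitor-like cells, or 18.7 CPM (10.5 to 30.9), and 9.24 CPM in deep layer-like cells. Of the 19 UMIs of Sema3b, 6 came from choroid plexus-like cells. Sema3d was highest in striatal-like cells, on 3 UMIs.

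**Figure D1:**
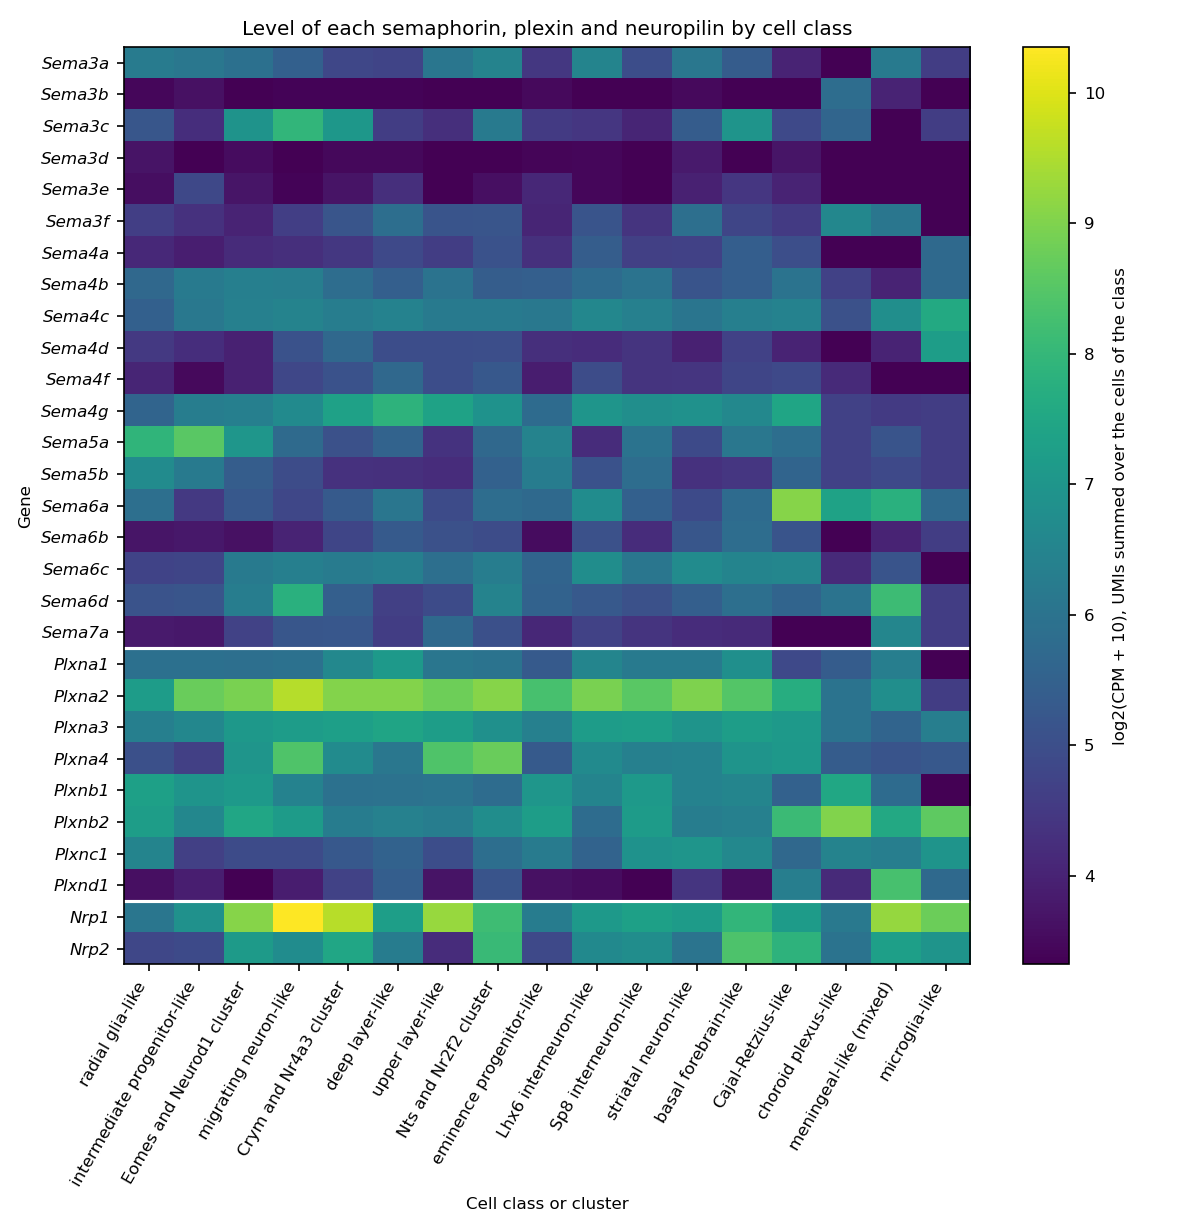
Level of the 29 family members (rows) in 17 cell classes or clusters (columns), as log2(CPM + 10) of the UMIs summed over the cells of each class, with white lines between semaphorins, plexins and neuropilins. Nrp1 and Plxna2 peak in migrating neuron-like cells (1295 and 751 CPM), Sema5a in intermediate progenitor-like cells (366 CPM) and Sema6a in Cajal-Retzius-like cells (524 CPM).

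Among the membrane-spanning class 4 ligands, Sema4g was 223 CPM (201 to 246) in deep layer-like, 166 in Cajal-Retzius-like and 155 CPM in upper layer-like cells, and 38.5 CPM in radial glia-like cells. Sema4f, at 41.6 CPM in deep layer-like cells, was above the next class, the Crym and Nr4a3 cluster, at 23.9 CPM, with intervals apart. Sema4c, a ligand of Plxnb2, lay between 34.7 and 85.1 CPM in the neural classes other than choroid plexus. Over the same named classes Sema4b ranged from 25.4 CPM in striatal-like to 70.2 CPM in migrating-like cells. Sema4a was highest among the neural classes in basal forebrain-like cells at 33.2 CPM and in Lhx6 interneuron-like cells at 32.0 CPM.

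Sema4d, a ligand of Plxnb1 also known from immune cells, had 142 CPM (68.1 to 261) in the 18 microglia-like cells, from 10 UMIs. The next class, the Crym and Nr4a3 cluster, was at 41.7 CPM. Microglia-like cells also showed Sema4c at 185 CPM (98.2 to 316), Plxnb2 at 383, Plxnc1 at 114 and Nrp1 at 426 CPM. No UMI of Plxna1 was found in them, which allows up to 42.6 CPM. Microglia markers summed to 18252 CPM in this class and to between 1.25 and 23.3 CPM in the other named classes.

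Sema5a and Sema5b, ligands with thrombospondin repeats, were highest in the 3 progenitor classes. Sema5a was 366 CPM (325 to 410) in intermediate progenitor-like, 231 in radial glia-like and 78.4 CPM in eminence progenitor-like cells, and 8.43 CPM in Lhx6 interneuron-like cells. Sema5b was 94.3 CPM (83.9 to 106) in radial glia-like, 66.8 in eminence progenitor-like and 63.7 CPM in intermediate progenitor-like cells. Every excitatory cluster from migrating-like onward had at most 21.1 CPM of it. Both genes were higher in Sp8 than in Lhx6 interneuron-like cells, at 53.6 against 8.43 CPM for Sema5a and 47.1 against 24.4 CPM for Sema5b, the first on too few UMIs for the limit used below.

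The class 6 ligands, which bind A-type plexins directly, had different homes. Sema6a stood at 524 CPM (447 to 611) in Cajal-Retzius-like cells, apart from the next class, the mixed meningeal-like cells at 210 CPM, and it was 12.5 CPM in intermediate progenitor-like cells. Sema6d was 210 CPM in migrating-like cells against 15 to 48.8 CPM in the other named neuronal classes, with 274 CPM (198 to 369) in the meningeal-like mixture. Sema6c was 98.6 CPM in Lhx6 interneuron-like and 95.8 CPM in striatal-like cells, and 16.7 CPM in radial glia-like cells. Sema6b was at most 3.75 CPM in the 3 progenitor classes and reached 46.8 CPM in basal forebrain-like cells. Sema7a, the lipid-anchored member, was 42.4 CPM in upper layer-like cells, 14.4 CPM in deep layer-like cells and 82.8 CPM (44.1 to 142) in the meningeal-like mixture.

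Of the A-type plexins, Plxna2 was found in every class, from 14.2 CPM (1 UMI) in microglia-like cells through 138 CPM in radial glia-like cells to 751 CPM (714 to 790) in migrating-like cells. Plxna4 was 333 CPM in both migrating-like and upper layer-like cells, 420 CPM in the unnamed Nts and Nr2f2 cluster of 228 cells, and 15 CPM in intermediate progenitor-like cells. Plxna1 was highest in deep layer-like cells at 128 CPM (112 to 146), and Plxna3 had the narrowest range of the 4, from 72.5 CPM in radial glia-like to 161 CPM in deep layer-like cells among the neural classes other than choroid plexus.

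Of the B-type plexins, Plxnb1 was 148 CPM in radial glia-like, 126 in Sp8 interneuron-like and 52.8 CPM in excitatory-like cells. Plxnb2, known for its part in progenitor proliferation and neural tube closure, was 513 CPM (397 to 652) in choroid plexus-like, 268 in Cajal-Retzius-like, 142 in radial glia-like, 140 in eminence progenitor-like, 135 in migrating-like, 135 in Sp8 interneuron-like and 46.3 CPM in Lhx6 interneuron-like cells. Plxnc1, the receptor of Sema7a, was 117 CPM in striatal-like, 109 in Sp8 interneuron-like and 80.4 CPM in radial glia-like cells, and 15 CPM in intermediate progenitor-like cells. Plxnd1 was 306 CPM (225 to 405) in the meningeal-like mixture, 70.3 in Cajal-Retzius-like and 32.9 CPM in deep layer-like cells. No UMI of Plxnd1 was found in Sp8 interneuron-like cells, which allows up to 6.43 CPM. In the meningeal-like cluster 8 of 8 endothelial markers had at least 10 UMIs, and their part in its Plxnd1 level was not tested.

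Of the neuropilins, Nrp1 was 1295 CPM (1246 to 1345) in migrating-like cells, 761 in the Crym and Nr4a3 cluster, 603 in upper layer-like, 143 in deep layer-like and 58.0 CPM in radial glia-like cells. Nrp2 was 322 CPM (275 to 375) in basal forebrain-like, 224 in Cajal-Retzius-like and 168 CPM in the Crym and Nr4a3 cluster, and 8.47 CPM in upper layer-like cells. Nrp1 also differed between the runs: 330 CPM in run 1 and 1381 in run 2 in the Crym and Nr4a3 cluster, 69.1 and 230 CPM in deep layer-like, and 999 and 1678 CPM in migrating-like cells. Whether the cells of a class are alike in the 2 runs was not tested.

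In 10 comparisons of 2 classes, a ratio counts as measured where the classes held at least 50 UMIs together, and as past the limit where the levels differed at least 1.5-fold. Ratios were measured in 214 cases and passed the limit in 128. Of all measured genes, between 19.4% and 44.7% passed, depending on the comparison. The same classes recur in several comparisons, so these cases are not independent. From radial glia-like to intermediate progenitor-like cells, the step at which cortical progenitors leave the ventricular surface, 20 members were measured, 6 were higher and 5 lower, while of all measured genes 34.8% passed in either direction, 13.4% higher and 21.4% lower. Plxna2 went from 138 to 416 CPM, a ratio of 3.03 (2.62 to 3.50), with 3.84 (3.11 to 4.74) in run 1 and 2.32 (1.89 to 2.84) in run 2. Nrp1 went from 58.0 to 107 CPM, but its ratio of 1.85 was 3.08 in run 1 and 1.05 in run 2. Sema4g (1.79) and Sema4c (1.73) followed. Plxnc1 went from 80.4 to 15 CPM, or 5.36-fold lower (3.02 to 10.5), Sema6a was 3.94-fold lower (2.09 to 8.38) and Plxnb2 1.64-fold lower (1.27 to 2.15). Sema3c was 3.07-fold lower (1.43 to 7.86), from 26.8 to 8.75 CPM, but its direction turned under other clusterings, with a log2 ratio of 1.64 at Leiden resolution 0.5 and 0.63 at resolution 2.

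With intermediate progenitor-like cells limited to the named class of 252, the step from them to migrating-like cells held the widest ratios of the 10 comparisons. Of 20 members measured, 11 were higher and 4 lower, while of all measured genes 36.4% passed in either direction, 16.8% higher and 19.6% lower. Sema3c went from 8.75 to 235 CPM, 26.8-fold higher (12.9 to 67.1), with 25.2 and 29.5 in the runs. Plxna4 went from 15 to 333 CPM, 22.2-fold higher (12.6 to 43.2). Nrp1 went from 107 to 1295 CPM, 12.1-fold higher (9.72 to 15.1), with 7.29 and 20.5 in the runs. Sema6d went from 26.2 to 210 CPM, 8.01-fold higher (5.17 to 13.1), with 4.60 in run 1 and 69.4 (12.3 to 2761) in run 2. A ligand, a receptor subunit and a co-receptor were thus higher at the same step.

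In the other direction Sema5a went from 366 to 43.7 CPM, 8.38-fold lower (6.59 to 10.7), and Sema5b from 63.7 to 21.1 CPM, 3.02-fold lower (1.97 to 4.64). Sema3a was 1.71-fold lower (1.15 to 2.51) and Plxnb1 1.5-fold lower (1.15 to 1.95). An unnamed cluster of 500 cells, led by Eomes and Mfap4 and with raised Neurod1, lay between these classes by its markers. It had 118 CPM of Sema5a, 112 of Sema3c, 531 of Nrp1, 117 of Plxna4 and 68.2 CPM of Sema6d, each between the levels of the 2 classes. Another unnamed cluster, 220 dividing cells, had 167 CPM of Sema5a, 51.8 of Sema3c, 314 of Nrp1 and 130 CPM of Plxna4. Both clusters scored best for intermediate progenitors but are outside that class. The folds of these genes at this step therefore hold for the 252 cells of the named class. They would be smaller with both clusters taken in. The plot of the excitatory lineage shows these levels in order of marker identity, which is not a measured time.

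**Figure D2:**
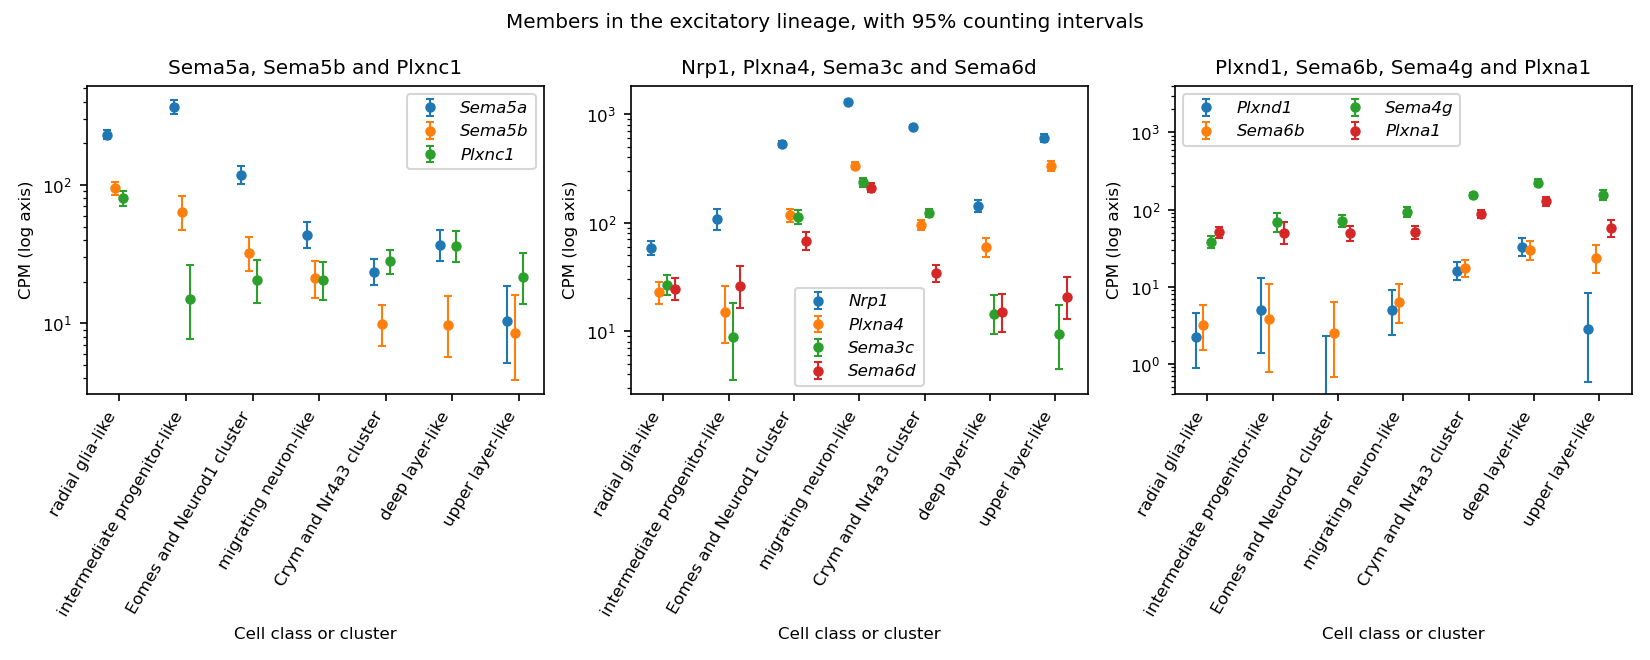
Levels of 11 members (CPM, log axis) in 7 classes or clusters of the excitatory lineage. Points are UMIs summed per class and bars are 95% counting intervals. Nrp1 and Sema3c peak in migrating neuron-like cells at 1295 and 235 CPM, Sema5a declines from 366 CPM in intermediate progenitor-like cells to 43.7 CPM in migrating-like cells, and Plxnd1 reaches 32.9 CPM in deep layer-like cells; Plxnd1 has 0 UMIs in the Eomes and Neurod1 cluster, where the upper end of its bar is drawn.

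From migrating-like to older excitatory-like cells 26 members were measured, 8 were higher and 8 lower, while of all measured genes 26.1% passed in either direction, 16.6% higher and 9.46% lower. Plxnd1 went from 4.91 to 18.3 CPM, 3.73-fold higher (1.96 to 7.99), Sema6b from 6.38 to 21.7 CPM, 3.41-fold higher (1.93 to 6.56), Sema3f from 14.7 to 32.0 CPM, 2.17-fold higher (1.48 to 3.30), and Sema6a from 18.2 to 35.9 CPM, 1.98-fold higher (1.39 to 2.88). Members high in migrating-like cells were lower in the pooled excitatory class: Sema6d 7.86-fold (6.57 to 9.44), Sema3c 3.14-fold (2.76 to 3.57), Plxna4 2.66-fold (2.40 to 2.96) and Nrp1 2.28-fold (2.17 to 2.40). Plxna4 was not lower in each excitatory cluster. It was 333 CPM in upper layer-like as in migrating-like cells, and 59.5 in deep layer-like cells and 95.3 in the Crym and Nr4a3 cluster. Plxnd1, higher in the pooled class, was 2.82 CPM in upper layer-like cells. For Nrp1 the fold was 4.06 in run 1 and 1.91 in run 2, and for Plxna4 3.03 and 2.18. Sema5a, 1.75-fold lower over all cells, was 1.2-fold lower in run 1 and 2.65-fold lower in run 2. Nrp2, which did not pass over all cells, had a ratio of 0.857 in run 1 and 1.5 in run 2. Sema5b, 2.19-fold lower over all cells, was 0.961-fold lower in run 1, that is level, and 4.87-fold lower in run 2.

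Deep and upper layer-like neurons differed in receptors as well as ligands: 22 members were measured, 5 were higher in the upper layer-like cluster and 8 lower, while of all measured genes 24.1% passed in either direction, 8.56% higher and 15.6% lower. Plxna4 went from 59.5 CPM in deep to 333 CPM in upper layer-like cells, 5.6-fold higher (4.49 to 7.05), with 5.44 in run 1 and 12.8 in run 2. Sema3a was 3.32-fold higher (2.11 to 5.32) and Sema7a 2.94-fold higher (1.76 to 4.99). Nrp1 went from 143 to 603 CPM, 4.23-fold higher (3.65 to 4.92), yet the ratio was 2.79 (2.36 to 3.31) within run 2 and 0.651 (0.131 to 1.99) within run 1, where the upper layer-like cluster had 17 cells and 3 UMIs of Nrp1.

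Lower in the upper layer-like cluster were Plxnd1, from 32.9 to 2.82 CPM and 11.7-fold (3.79 to 58.2), Nrp2, from 67.5 to 8.47 CPM and 7.97-fold (4.06 to 17.9), Sema5a, 3.57-fold (1.87 to 7.50), and Sema6a, 2.79-fold (1.74 to 4.65). The pair of neuropilins therefore pointed in opposite directions between these 2 clusters in the pooled cells and within run 2, where Nrp2 was 7.12-fold lower. In run 2 alone Sema6a was 2.93-fold lower, and Plxnd1 had 18 UMIs over both clusters, too few for a ratio to count as measured. The comparison leaves out the Crym and Nr4a3 cluster, whose best marker list was excitatory (mean log2 fold 0.882), followed by deep layer (0.787). That cluster had 761 CPM of Nrp1, above the 603 CPM of the upper layer-like cluster, and 168 CPM of Nrp2.

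Dorsal and ventral progenitors were compared next. Between radial glia-like and eminence progenitor-like cells 21 members were measured, 3 were higher in the ventral class and 5 lower, while of all measured genes 23.5% passed in either direction, 8.43% higher and 15% lower. Sema6c was 2.29-fold higher (1.56 to 3.36), Plxna2 2.23-fold higher (1.96 to 2.54) and Sema4c 1.75-fold higher (1.32 to 2.32). Sema3a went from 65.6 to 12.2 CPM, 5.4-fold lower (3.41 to 9.02), Sema5a was 2.95-fold lower (2.44 to 3.58), Sema3f 2.22-fold lower (1.13 to 4.74) and Sema3c 2.10-fold lower (1.29 to 3.57). Run 2 held only 20 eminence progenitor-like cells.

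From eminence progenitor-like to interneuron-like cells 19 members were measured, 10 were higher and 3 lower, while of all measured genes 44.7% passed in either direction, 20.4% higher and 24.3% lower. Sema3a went from 12.2 to 63.5 CPM, 5.23-fold higher (3.22 to 8.90), Nrp2 from 19.4 to 93.7 CPM, 4.82-fold higher (3.28 to 7.29), Plxna4 was 2.95-fold higher (2.12 to 4.16) and Sema4a 2.80-fold higher (1.55 to 5.31). Sema5a was 3.70-fold lower (2.53 to 5.55), Sema5b 2.17-fold lower (1.54 to 3.08) and Plxnb2 1.97-fold lower (1.57 to 2.48). The change toward striatal-like cells had many of these members: of 18 measured, 10 were higher and 5 lower, while of all measured genes 43.7% passed in either direction, 18.7% higher and 25% lower. Sema3a was 4.87-fold higher (2.80 to 8.76), Nrp2 2.83-fold (1.73 to 4.66), Plxna4 2.60-fold (1.74 to 3.91) and Sema6c 2.50-fold (1.75 to 3.58). Sema5b was 6.78-fold lower (3.18 to 17.3), Sema5a 3.97-fold (2.28 to 7.47), Sema6a 2.19-fold (1.22 to 4.20) and Plxnb2 2.03-fold (1.49 to 2.83). Both comparisons share the eminence progenitor-like cells.

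**Figure D3:**
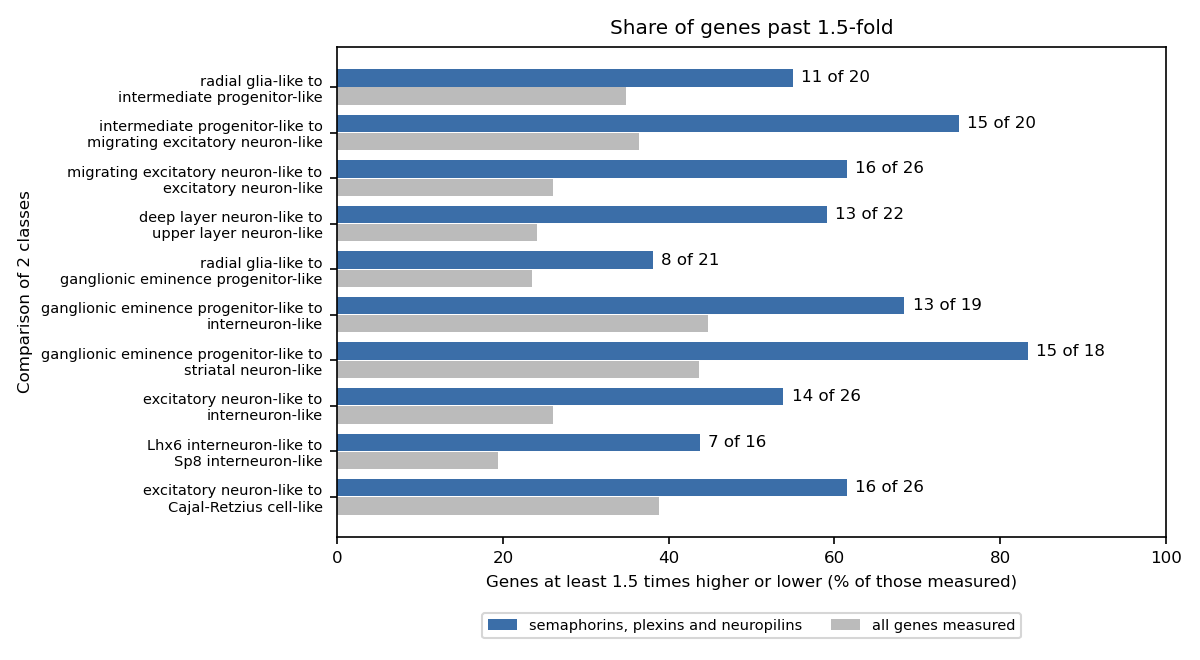
Share of genes at least 1.5 times higher or lower in each of the 10 class comparisons, for the measured family members (blue, with their number) and for all measured genes (grey). The blue bar is the longer in each comparison, from 8 of 21 members against 23.5% of all genes between radial glia-like and eminence progenitor-like cells to 15 of 18 against 43.7% from eminence progenitor-like to striatal-like cells; the members were not matched to other genes on level.

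Between excitatory-like and interneuron-like neurons 26 members were measured, 6 were higher in interneuron-like cells and 8 lower, while of all measured genes 26% passed in either direction, 10.8% higher and 15.2% lower. Sema5b went from 9.63 to 30.8 CPM, 3.20-fold higher (2.17 to 4.71), Sema3a from 24.5 to 63.5 CPM, 2.59-fold higher (2.0 to 3.33), Sema6a was 2.19-fold higher (1.75 to 2.73) and Plxnc1 1.97-fold higher (1.52 to 2.53). Plxnd1 went from 18.3 to 1.21 CPM, 15.2-fold lower (4.10 to 127), on 2 UMIs in interneuron-like cells. Sema3c was 7.27-fold lower (4.49 to 12.6), Nrp1 4.18-fold lower (3.65 to 4.80) and Sema4d 3.63-fold lower (2.15 to 6.60). The pooled excitatory class is mixed for some of these genes. Sema3c was 122 CPM in the Crym and Nr4a3 cluster, but 14.4 in deep and 9.41 in upper layer-like cells, against 10.3 in interneuron-like cells. Nrp1 was 761, 143 and 603 CPM in the same clusters, against 136 in interneuron-like cells. Sema3a was 57.4 CPM in upper layer-like cells. Nrp2 and Plxnb2 did not pass over all cells, but the runs stood apart: the ratio of Nrp2 was 1.30 in run 1 and 0.448 in run 2, and that of Plxnb2 1.41 and 0.412.

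The 2 interneuron-like classes differed in 7 of 16 measured members, 4 higher in the Sp8 class and 3 lower, while of all measured genes 19.4% passed in either direction, 8.78% higher and 10.7% lower. Plxnc1 went from 37.1 to 109 CPM, 2.95-fold higher (1.93 to 4.51), Plxnb2 from 46.3 to 135 CPM, 2.91-fold higher (2.0 to 4.26), Sema5b was 1.93-fold higher (1.06 to 3.48) and Plxnb1 1.58-fold higher (1.12 to 2.21). Sema3a went from 80.1 to 21.4 CPM, 3.74-fold lower (1.95 to 8.04), Sema6a was 2.80-fold lower (1.65 to 5.07) and Sema6c 1.70-fold lower (1.11 to 2.70). The Sema3a contrast lay mainly in the Sst and Nxph2 cluster of the Lhx6 class. As given above, the Maf and Lhx6 cluster, with 272 of the cells, was much nearer the Sp8 level. Nrp1 was 131 CPM in the Lhx6 class and 150 CPM in the Sp8 class, and Nrp2 91.9 and 98.5 CPM, so neither neuropilin passed. Inside the Lhx6 class the 2 clusters differed in Nrp2, at 140 CPM in the Maf and Lhx6 cluster and 42.6 CPM in the Sst and Nxph2 cluster. The first had 213 cells in run 1 and 59 in run 2, the other 72 and 136. Within run 1 Nrp2 was 142 and 67.9 CPM in them, and within run 2 131 and 29.2 CPM, on 11 to 69 UMIs each.

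Cajal-Retzius-like cells, the early Reln-positive neurons of the marginal zone, differed from excitatory-like neurons in 16 of 26 measured members, 7 higher and 9 lower, while of all measured genes 38.8% passed in either direction, 20.9% higher and 17.9% lower. Sema6a went from 35.9 to 524 CPM, 14.6-fold higher (11.9 to 17.9), with 16 and 14 in the runs. Sema5b was 3.98-fold higher (1.95 to 7.46), Plxnb2 3.88-fold higher (3.04 to 4.91) and Plxnd1 3.83-fold higher (2.31 to 6.08). Meningeal markers summed to 102 CPM in these cells, against 7.92 CPM in excitatory-like and 7424 CPM in the meningeal-like cells, and their part in these ratios was not tested; the Sema6a level of the meningeal-like cells was itself 210 CPM.

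Lower in Cajal-Retzius-like cells were Sema4d, 5.15-fold (1.41 to 42.8), Plxna1, from 93.4 to 19.2 CPM and 4.87-fold (2.22 to 13.3), Nrp1, from 568 to 134 CPM and 4.24-fold (3.13 to 5.89), and Sema3c, 3.90-fold (1.78 to 10.7). The excitatory class is mixed for Nrp1 and Sema3c. Deep layer-like cells had 143 and 14.4 CPM of them, upper layer-like cells 603 and 9.41, and the Crym and Nr4a3 cluster 761 and 122. Sema3c was 19.2 CPM in Cajal-Retzius-like cells. No UMI of Sema7a was found in the 71 cells, so it was at least 2.76-fold lower, taking 3 counts over the class as the limit. Sema3c had 6 UMIs in these cells, and its direction turned, to a log2 ratio of 0.96, with clusters from 50% of the UMIs. Nrp1 was 1.59-fold lower in run 1 and 14.8-fold lower in run 2, and Plxna2, 2.56-fold lower over all cells, 2.02-fold and 6.2-fold lower. The ratio of Nrp2, 1.95 over all cells, was 2.85 in run 1 and 1.14 in run 2.

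Of the 128 ratios past the limit, 78 were measured in both runs with at least 50 UMIs in each, and 75 of these had the same direction in both. The exceptions were Nrp1 between the deep and upper layer-like clusters, Sema5b from migrating-like to excitatory-like cells, and Plxna1 between radial glia-like and eminence progenitor-like cells. Plxna1 was 1.94-fold lower in run 1 and 0.960-fold lower in run 2. Of 139 ratios measured in both runs, past the limit or not, 15 had intervals that did not meet, and 5 of these belonged to Nrp1. The other 10 belonged to Nrp2, Plxna2, Plxna4, Plxnb2, Sema5a, Sema5b and Sema6d.

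**Figure D4:**
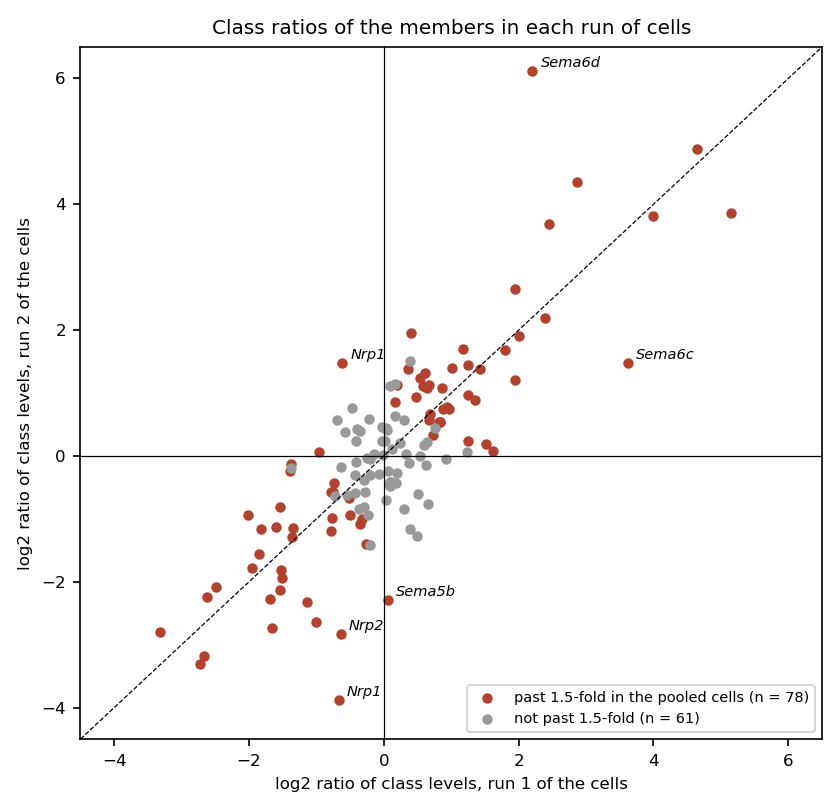
Log2 class ratios of the members in run 1 of the cells (horizontal) and run 2 (vertical), for the 139 ratios measured in both; red points passed 1.5-fold in the pooled cells and grey points did not, and the dashed line marks equal ratios. Of the 78 red points, 75 lie at lower left or upper right of the crossing of the zero lines; genes whose log2 ratios differ by more than 2 are named.

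Neuropilins and plexins act as a complex, so their presence in the same cell was counted after each cell was thinned to 1000 UMIs. In migrating-like cells 59.8% held a UMI of Nrp1 (55.8 to 63.7), 51.5% one of Plxna2 and 29.4% both (25.8 to 33.2), and the product of the 2 shares is 30.8%. Without thinning 81.9% of these cells held Nrp1. The lowest Nrp1 class with over 100 cells, radial glia-like, had it in 3.62% after thinning and 10.7% before, with median depths of 3387 UMIs and 3110 in migrating-like cells. For Nrp1 and Plxna4 the share with both was 14.1% against a product of 15.6%, and for Nrp1 and Plxna3 5.48% against 5.56%. In upper layer-like cells Nrp1 and Plxna2 met in 13% of cells, against a product of 12%. Over 32 combinations of a pair and a named class in which the product gave at least 5 cells, 2 reached 1.5 times the product, and some of these classes are nested. Both were in deep layer-like cells: Nrp1 with Plxna1 in 2.13% (1.03 to 3.89) against 1.27%, and Nrp1 with Plxna3 in 2.99% (1.64 to 4.96) against 1.69%, and both intervals hold the product.

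Known ligand and receptor pairs were set side by side in the same classes, within each gene's own scale. Sema3c and Nrp1 were both highest in migrating-like cells among the named classes. For Sema3f and Nrp2 the highest classes differed, choroid plexus-like and basal forebrain-like cells, and in upper layer-like cells Nrp2 was at 8.47 and Sema3f at 25.4 CPM. Sema6a peaked in Cajal-Retzius-like cells, where its receptors Plxna2 and Plxna4 were at 198 and 125 CPM, against 436 and 333 CPM in upper layer-like cells. Sema7a and Plxnc1 were at 42.4 and 21.7 CPM in upper layer-like cells and at 8.45 and 117 CPM in striatal-like cells, and Itgb1, the integrin subunit that also binds Sema7a, was 185 CPM in radial glia-like cells. RNA levels in dissociated cells do not show which cells were neighbours.

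Members of the same subfamily did not always share a pattern. Across 15 classes the correlation of log2(CPM + 10) had a median r of 0.34 over 33 pairs within a subfamily and 0.03 over 292 other pairs, given as a description because classes differ in depth and share genes. Sema4f and Sema4g had r = 0.86 with 36.6% identical residues between their proteins, translated from GENCODE transcripts and aligned over their length, and Sema5a and Sema5b r = 0.78 with 59.3%. The 4 A-type plexins, 59.5% to 67.5% identical, ranged from r = 0.26 for Plxna1 with Plxna4 to 0.75 for Plxna1 with Plxna2. Nrp1 and Nrp2, 49.3% identical, had r = 0.34. The r was negative for Sema6b with Sema6d (-0.28) and for Plxnb1 with Plxnb2 (-0.23). Each class counts equally in r, and the 18 microglia-like cells had no UMI of Plxnb1 and 383 CPM of Plxnb2. Both of these plexins were highest in choroid plexus-like cells, at 171 and 513 CPM. Outside a subfamily, Plxna3 with Sema4g had the highest r, 0.93, and Plxnb1 with Sema4c the lowest, -0.84.

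The genes that carry the signal inside the cell were taken as 4 lists of 43 genes, all in the matrix. At the step from intermediate progenitor-like to migrating-like cells, 5 of 8 measured cytoskeletal effectors were higher and 1 lower, with a median log2 ratio of 1.01 against -0.09 over all measured genes, of which 36.4% passed. Crmp1, a collapsin response mediator that acts downstream of Sema3a, was 4.25-fold higher (3.70 to 4.91), and Dpysl4, of the same family, was 6.66-fold lower (4.80 to 9.35). Of 9 kinases and adaptors 5 were higher and none lower, led by Cdk5r1, the activator of Cdk5, at 5.64-fold (4.76 to 6.73). L1cam, an adhesion partner of Nrp1, was 5.73-fold higher (4.12 to 8.18), and 2 of 4 measured receptor partners were higher. Of 12 GTPases and regulators 2 were higher and 3 lower, with Rras2 2.72-fold higher (1.55 to 5.16) and Farp1, an exchange factor bound by A-type plexins, 4.03-fold lower (2.61 to 6.30).

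Fewer of these genes passed the limit at the neighbouring steps. From radial glia-like to intermediate progenitor-like cells 4 of 13 GTPases and regulators were lower and none higher, where 21.4% of all measured genes were lower and 13.4% higher, led by Rras, a GTPase that plexins inactivate, at 4.04-fold lower (1.66 to 12.8), with a median log2 ratio of -0.27 against -0.03 over all genes. At that step Ranbp9 was 1.68-fold higher (1.36 to 2.08), Dpysl3 1.66-fold higher (1.52 to 1.81), Mical1 1.5-fold lower (0.918 to 2.59) and Erbb2 2.05-fold lower (1.02 to 4.66), with 5 of 6 receptor partners, 8 of 9 kinases and adaptors and 6 of 8 effectors within the limit. From migrating-like to excitatory-like cells Dpysl4 was 3.94-fold higher (2.97 to 5.34), Farp1 2.52-fold higher (1.78 to 3.67), Nrcam 1.98-fold higher (1.69 to 2.33) and Ptk7 1.82-fold lower (1.12 to 2.91). At this step 2 of 8 effectors, 1 of 13 GTPases and regulators and 2 of 5 receptor partners were higher, 1 receptor partner was lower, and 0 of 9 kinases and adaptors passed. Of all measured genes 16.6% were higher and 9.46% lower there.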

How the data were processed

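The deposited matrix holds raw counts of UMIs per gene and cell with no normalization, per the file headers and its whole-number values, and the submitters' processing notes name build mm10. Aligner, counter, annotation and strand setting: not given in the sources used here (SureCell workflow per the labels). The 5777 cells have a median of 3258 UMIs and at least 1111, so the minimum of 500 UMIs removed 0 cells; 4 cells with over 10% globin UMIs were set apart, and doublets were kept. Cells were clustered with scanpy 1.11.5 and leidenalg 0.10.2 (Python 3.11.15): counts scaled to 10000, log1p, 2000 variable genes in at least 10 cells, 30 components, 15 neighbours, Leiden resolution 1, seed 1. The family, the 4 pathway lists, ribosomal, sex and globin genes were left out of the features. Of 197 markers in 24 lists, 179 are in the matrix. A named cluster took its best-scoring list, whose mean log2 fold had to reach 0.5 with 3 markers raised 1.5-fold, limits set after the markers. Meeting these limits did not by itself give a name. The unnamed Eomes and Mfap4 cluster (mean log2 fold 1.52, 7 markers raised) met them. So did the unnamed dividing cluster (0.863, 8 raised) and the unnamed Nts and Nr2f2 cluster (0.529, 4 raised). The Eomes and Mfap4 cluster and the dividing cluster scored best for intermediate progenitors, but their 500 and 220 cells are outside that class. The members, lists and comparisons were chosen with earlier results of these data known.

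UMIs were summed per class and divided by the class total, with exact Poisson intervals for levels, exact conditional binomial intervals for ratios and Clopper-Pearson intervals for shares. No test between groups was possible with 1 group, and cells are not replicates. A class with 0 UMIs was set to 3 counts, and where that bound crossed 1 no ratio was given. Up to 4 members with the largest ratios in each direction are named per comparison, and 1 gene per pathway list and direction in the excitatory steps. On simulated counts for classes of 800 and 250 cells, near radial glia-like and intermediate progenitor-like sizes, 4.46% of 8826 unchanged genes passed the 1.5-fold limit. Annotated genes overlap Nrp1, Plxna1, Plxna4, Plxnb1, Plxnc1, Sema4a and Sema4c, and none of the overlapping genes is in the matrix. Alternatives changed the resolution, components, features, doublets, UMIs, minimums, weighting, run of cells, thinning and naming.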

Additional observations from a re-analysis of the deposited data

Results flagged for a closer look

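Within the runs of cells, 2 members went past 1.5-fold in opposite directions under the same comparison, and neither difference was tested. The ratio of Nrp1 in upper over deep layer-like cells was 0.651 in run 1 (0.131 to 1.99) and 2.79 in run 2 (2.36 to 3.31). The ratio of Sema6b in Cajal-Retzius-like over excitatory-like cells was 1.58 in run 1 (0.607 to 3.46) and 0.588 in run 2 (0.0147 to 3.37), on 7 UMIs and 1 UMI of Sema6b in Cajal-Retzius-like cells, and these intervals overlap.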

How the results depend on the processing

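No paired analysis was possible because no column or cell carries a replicate number. Over 13 alternative settings, 110 of 122 counts of members past the limit stayed within 1.5 times the main count, and of 879 values for 77 named ratios 707 stayed within the main counting interval, 167 moved in the same direction and 5 reversed; 74 ratios never reversed. Sema3c from radial glia-like to intermediate progenitor-like cells reversed to a log2 ratio of 1.64 at resolution 0.5, 0.63 at resolution 2 and 1.36 where every cluster was named by its best class, an alternative added after seeing the data. Nrp1 from deep to upper layer-like cells was -0.62 in run 1, and Sema3c from excitatory-like to Cajal-Retzius-like cells was 0.96 with clusters from 50% of the UMIs. From radial glia-like to intermediate progenitor-like cells the 11 members past the limit became 7 with the family allowed as features, with 50% of the UMIs, with at least 2000 UMIs per cell (4800 cells) and in run 1. From radial glia-like to eminence progenitor-like cells 8 became 14 at resolution 0.5, 13 with 15 components and 5 in run 2. Toward interneuron-like cells 13 became 7, and toward striatal-like cells 15 became 0 (1 measured), in run 2, and the latter became 6 with 50% of the UMIs. Between the interneuron-like classes 7 became 13 with at least 10 UMIs and 3 in run 2. Combinations of neuropilin and plexin at 1.5 times the product went from 2 to 7 without thinning. Single runs and split data hold fewer UMIs, while a lower minimum admits more members and unthinned cells admit more combinations. These counts therefore do not rest on the same number measured. The causes of these changes were not tested. At resolution 0.5, with 15 components, with 50% of the UMIs and with at least 2000 UMIs, 8 of the 10 comparisons had both classes named. Depth limits Sema3b, Sema3d and Sema3e and the classes under 100 cells.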
